A study of Mus musculus with 49 samples.

Results

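The respiratory chain genes described here are 66 mouse genes, read from probe sets of an oligonucleotide array that holds 9977 probe sets for 7417 named genes. Members are the genes whose symbol begins with Nduf, Sdh (Sdha to Sdhd), Uqcr, Cox4 to Cox8 or Atp5, taken from probe sets that match only 1 gene. They comprise 27 genes of complex I, 4 of complex II, 7 of complex III, 12 of complex IV, 14 of complex V and 2 assembly factors of complex I, Ndufaf1 and Ndufaf4. The annotation lists 96 protein-coding genes with such names, so the array measured most but not all of them. A probe set is a group of short oligonucleotides that together report on 1 transcript, and its signal is given in arbitrary units on a linear scale. Of these genes 9 had several probe sets, and for these the brightest one, by its mean log2 signal over the arrays, is given.

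The respiratory chain sits in the inner mitochondrial membrane. Complex I takes electrons from NADH and complex II from succinate, complex III passes them on to cytochrome c, and complex IV hands them to oxygen. The protons pumped along the way drive complex V, the ATP synthase. Most subunits are encoded in the nucleus, and all genes described here are nuclear. In developing B cells, growth in interleukin-7 (IL-7) and the large pre-B cell stage are the phases of rapid division, and small pre-B and immature B cells divide little. Some complex IV subunits exist as paired isoforms. Cox6a1 is the ubiquitous form and Cox6a2 the form known from heart and skeletal muscle, and Cox6b2 and Cox8c are forms known from testis.

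The study asked what happens to immature B cells when signalling from surface IgM stops, on 37 arrays in 10 groups. Ctrl-Mhi cells (4 arrays) came from B1-8f/3-83κ marrow, which carries a knock-in heavy chain flanked by LoxP sites and a knock-in light chain. The cells were expanded in IL-7, moved for 2 days to medium without IL-7 but with interferon αβ, and sorted for high IgM. Cre-Mhi and Cre-Mlo cells (4 arrays each) were treated likewise but also carry Mx-Cre, a recombinase that interferon switches on, and were sorted for retained IgM or for its loss. B6-M- cells (3 arrays) were IgM-negative B220+ cells from IL-7 cultures of C57BL/6 marrow. GFPneg and GFPpos cells (3 arrays each) came from IL-7 cultures of HEL-Ig/Rag2-GFP marrow, which carries an immunoglobulin against hen egg lysozyme and a reporter of the Rag2 gene. They spent 1 day without IL-7, GFPneg in medium and GFPpos with the tyrosine kinase inhibitor herbimycin A, and were sorted as IgM+ cells without or with GFP. Drug and sort gate go together in these groups and cannot be told apart. FxD and FxE cells (3 arrays each) were sorted straight from Balb/c marrow, FxD as pre-B cells (B220+CD43-IgM-) and FxE as immature B cells (B220+IgM+IgD-). FxE Ctrl (4 arrays) and FxE HA (6 arrays) were immature B cells of the same surface phenotype from Bcl-2 transgenic marrow, cultured in medium or with herbimycin A for 24 or 48 h. Ctrl-Mhi, Cre-Mhi and Cre-Mlo arrays came from 4 independent sorts each and, by the study's methods, the other groups from 2 or 3 sorts. By that count some of the 6 FxE HA arrays share a sort, and some FxE Ctrl arrays may. The p-values for these groups then measure partly technical spread.

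The 6 groups grown in IL-7 are called culture groups below, and the 4 groups sorted from marrow are called marrow groups. The 2 kinds differ in mouse strain and in handling, and the methods describe 2 rounds of RNA amplification for FxD and FxE samples, so source, strain and amplification cannot be told apart between them. Whether FxE Ctrl and FxE HA samples were amplified in the same way is not given in the sources used here. Median signals per array lay between 345.9 and 544. B lineage markers were present throughout, with summed signals of 200682 to 287017 in culture arrays and 49239 to 130631 in marrow arrays (7 genes). Summed myeloid markers (11 genes) reached 2027 to 4609 in culture arrays and 28663 to 278162 in marrow arrays, and summed erythroid markers (8 genes) reached 74572 to 211655 in FxD and FxE against 2229 to 4166 in all culture groups other than B6-M-. The part of these other cells in the values below was not tested. In such bulk samples, fewer cells of a type and less RNA per cell cannot be told apart.

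The promoters of Cox6a1, Atp5l and Ndufb6 are printed with matches to core letters of known control sites, each found in a minority of member promoters. A promoter is here the stretch from 250 bases before to 50 bases after the annotated start, from RefSeq (build GRCm38.p6), which held 58 promoters of 53 of the 66 genes. Both strands were searched for GCGCATGC (the core of the site for NRF1, a regulator of respiratory genes), CCGGAAG (a core of sites for ETS factors such as GABP) and AAGATGGC (a core of YY1 sites). NRF1 letters were found in 9 of the 58 promoters (15.5%, against 2.71% of all 32851 promoters), ETS letters in 16 (27.6% against 8.86%) and YY1 letters in 8 (13.8% against 2.75%). The sequences below run 5′ to 3′ along the gene, with matches on either strand in capitals. Cox6a1 is shown as the ubiquitous counterpart of the member that varied most, Atp5l as the member whose brightest probe set dropped most in marrow groups (its second probe set did not), and Ndufb6 as a complex I gene that was higher in B6-M- cells and lower in marrow groups. Cox6a2 is named only.
Cox6a1, chr5:115348909-115349208, minus strand: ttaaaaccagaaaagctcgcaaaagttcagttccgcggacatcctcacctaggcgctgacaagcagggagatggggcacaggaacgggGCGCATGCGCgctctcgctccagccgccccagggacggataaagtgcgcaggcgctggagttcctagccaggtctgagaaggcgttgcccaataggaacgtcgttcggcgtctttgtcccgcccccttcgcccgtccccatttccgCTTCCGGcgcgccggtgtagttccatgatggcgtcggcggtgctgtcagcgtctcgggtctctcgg
Atp5l, chr9:44920693-44920992, minus strand: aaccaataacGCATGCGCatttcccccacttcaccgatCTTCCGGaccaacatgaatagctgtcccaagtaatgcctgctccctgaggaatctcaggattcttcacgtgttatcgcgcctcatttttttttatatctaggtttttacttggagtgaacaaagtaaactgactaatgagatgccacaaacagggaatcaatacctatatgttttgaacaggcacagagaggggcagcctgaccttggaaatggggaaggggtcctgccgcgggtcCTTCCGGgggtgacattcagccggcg
Ndufb6, chr4:40279372-40279671, minus strand: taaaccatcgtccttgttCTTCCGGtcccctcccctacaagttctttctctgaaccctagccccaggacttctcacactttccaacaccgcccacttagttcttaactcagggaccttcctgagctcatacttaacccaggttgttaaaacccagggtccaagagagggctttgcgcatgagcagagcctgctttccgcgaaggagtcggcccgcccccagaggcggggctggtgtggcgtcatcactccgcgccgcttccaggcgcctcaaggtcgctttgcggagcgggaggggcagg
The capitals in Cox6a1 are 2 overlapping NRF1 matches, 1 on each strand, and 1 ETS match. Atp5l has 1 NRF1 match and 2 ETS matches, and Ndufb6 has 1 ETS match. None of the printed promoters has a YY1 match. These are matches of letters, not measured binding.

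Respiratory chain genes varied less across the 10 groups than the array as a whole. The range of a gene's group means, from the lowest to the highest group, had a median of 1.03 in log2 over the members against 1.49 over all probe sets. Restricted to signals averaging 500 or more, the medians were 1.04 and 1.42. Each member is read from its brightest probe set, while all probe sets include second and unnamed ones, and brightness was not matched further. The part of brightness in the narrower range was not tested. The range was under 1 for 31 members, between 1 and 2 for 28 and at least 2 for 7. Signals were well above the lowest values of the array for most: 57 of 66 members had a mean of at least 500, compared with 50.2% of all probe sets, and none had a value at or under 20.

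Of the 5 members with the narrowest range, 3 belong to complex I. Ndufa13, an accessory subunit that is also needed to assemble complex I, had group means between 2219 and 2830, a range of 0.38 in log2. Ndufv1, which carries the NADH-binding site, ranged over 0.47 and Ndufb9 over 0.48. Cox6b1, the ubiquitous partner of Cox6b2 in complex IV, ranged over 0.49, and the assembly factor Ndufaf1 over 0.51.

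The brightest and the dimmest probe set of a complex give its extremes, though signals of different probe sets are not comparable as levels. Ndufb5, an accessory subunit of complex I, averaged 15657 to 22550 in culture groups and 37915 to 41520 in marrow groups. It was thus higher in every marrow group than in any culture group, as were Cox6a1 and Atp5a1, described below. At the dim end, Ndufa12 of complex I averaged 107 to 185 over all groups, Cox8a of complex IV 92.5 to 161, Atp5j2 of complex V 155 to 301 and the assembly factor Ndufaf4 239 to 433. Uqcr11, the dimmest of complex III, averaged 2012 to 3490, with its highest means in B6-M- and FxE HA cells. Cox4i1, a nuclear-encoded subunit of complex IV, had one of the 5 widest ranges among members averaging 500 or more (2.06), from 694 in Cre-Mhi to 2856 in FxE HA cells.

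**Figure D1:**
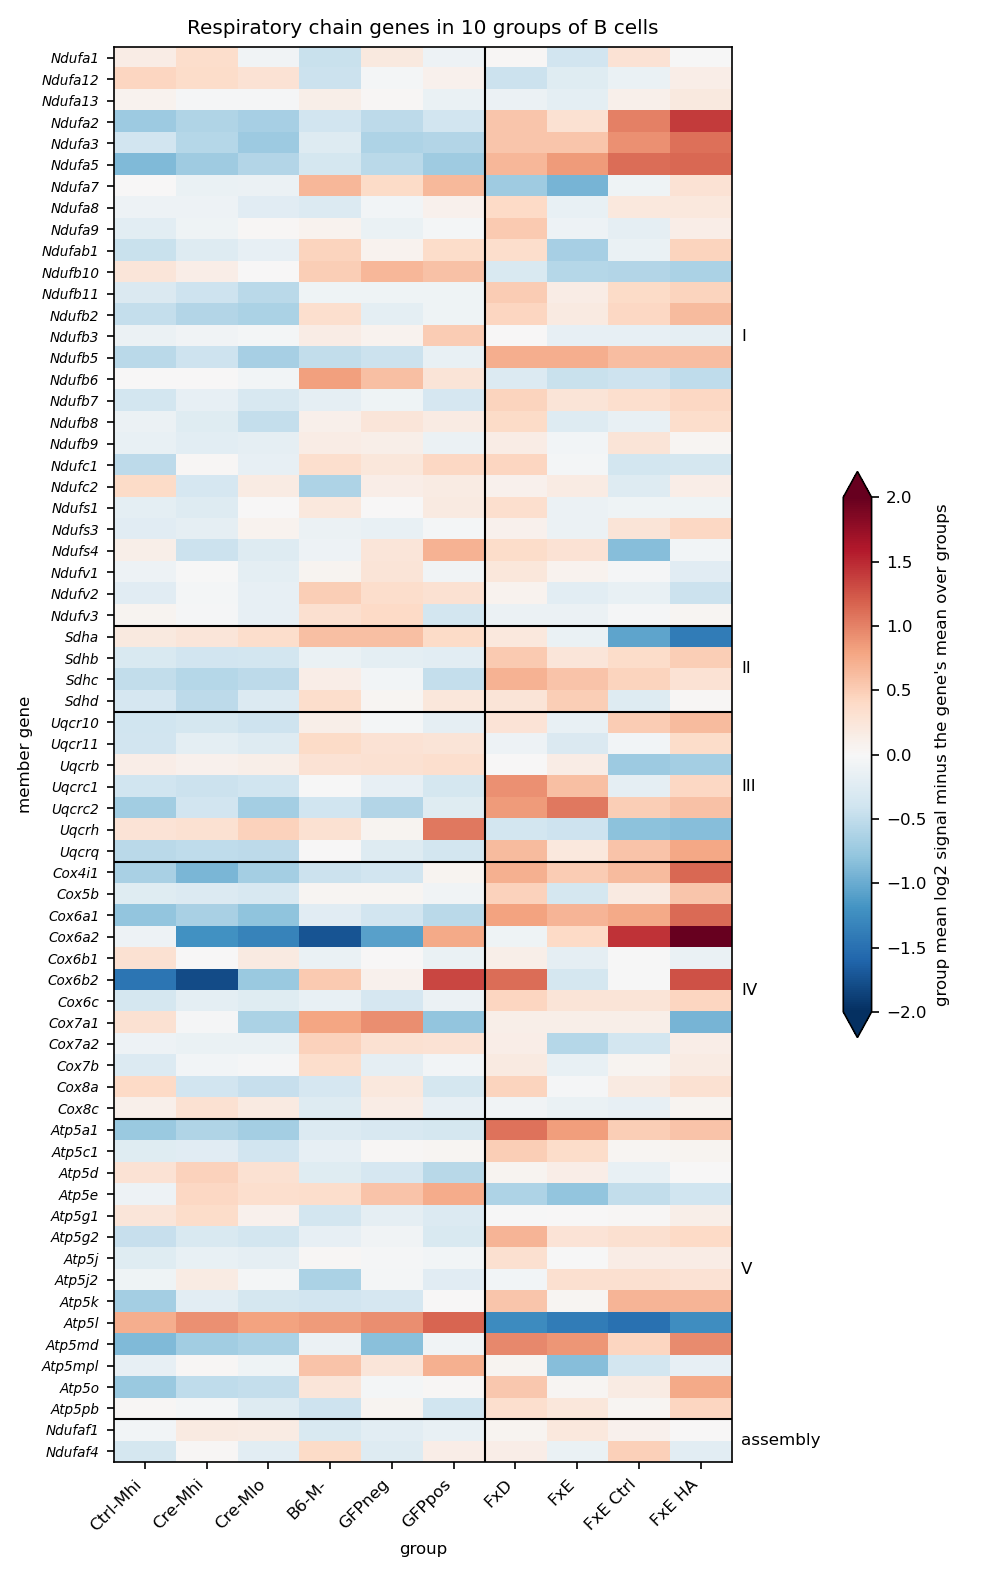
Heat map of the 66 respiratory chain genes (rows, ordered by complex) in the 10 groups (columns), as the group's mean log2 signal minus the gene's mean over the groups. The line separates the 6 culture groups from the 4 marrow groups. Cox6a2, with a range of 4.69, stands out, and the Atp5l probe set shown drops most in the marrow groups, although a second, dimmer Atp5l probe set differs by 0.33 in the other direction.

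The median shift of the members per array, relative to each member's mean over the groups, averaged 0.06 to 0.35 in marrow groups and -0.22 to 0.03 in culture groups (log2), and 0.23 to 0.56 against -0.39 to -0.06 with each array centred on its median. For 17 of 66 members all 4 marrow means lay above all 6 culture means, compared with 7.43% of all probe sets, and for 5 members all lay below, compared with 12.3% of all probe sets. These counts move with the scaling: 19 and 6 after quantile normalization (10.8% and 9.86% of all probe sets), and 30 and 2 with centring (16.2% and 7.80%). Array medians, as log2 of the signal, averaged 8.84 to 8.99 in culture groups and 8.59 to 8.68 in marrow groups, which is the shift that centring removes.

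Ndufa5 and Ndufa2, accessory subunits of complex I, were the highest in marrow relative to culture groups within that complex. Ndufa5 averaged 2690 to 3880 in culture groups, and 7812 ± 1042 (SD, n = 3) in FxD, 9129 ± 3076 (n = 3) in FxE, 10825 ± 2009.5 (n = 4) in FxE Ctrl and 11103 ± 2525 (n = 6) in FxE HA. Ndufa2 averaged 3610 to 4601 in culture groups, 8869 in FxD, 7312 in FxE, 12305 in FxE Ctrl and 15924 in FxE HA. No array of a marrow group fell into the range of the culture arrays for either gene. The Ndufa5 probe set carries a suffix that can mark probes shared between transcripts.

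Atp5a1, the alpha subunit of the catalytic head of ATP synthase, averaged 14500 to 20163 in culture groups. In marrow it averaged 51739 in FxD, 43511 in FxE, 34260 in FxE Ctrl and 36468 in FxE HA. Cox6a1, which belongs to the outer part of complex IV, behaved alike, with 16442 to 24540 in culture groups and 45872 to 63143 in marrow groups. Both genes were thus higher in marrow groups, with no overlap of group means.

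Sdha, the flavoprotein of complex II, went the other way in part. It averaged 764 to 1044 in culture groups, 789 in FxD and 628 in FxE, but 326 in FxE Ctrl and 258 in FxE HA. Among complex II genes Sdhb, the iron-sulphur subunit, averaged 7575 to 9013 in culture groups and 11808 to 14307 in marrow groups. Its probe set carries a suffix that can mark probes shared between transcripts. As read by these probe sets, the catalytic subunits of 1 enzyme did not move together across groups.

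Atp5l, subunit g of the membrane part of ATP synthase, had a range of 2.66 in log2, after Cox6a2 (4.69) and the dim Cox6b2 (3.13) the widest of the members. Its means were 17535 to 23894 in culture groups, and 5000 ± 2864 in FxD (n = 3), 4221 ± 1768 in FxE (n = 3), 3858 ± 1056 in FxE Ctrl (n = 4) and 4749 ± 1876 in FxE HA (n = 6). The highest marrow array, at 8236, was below the lowest culture array, at 16907. Averaged over groups, this probe set differed by -2.25 (log2, marrow minus culture), and a second, dimmer Atp5l probe set by 0.33. Direction also depended on the probe set for Ndufb2 (0.69 against -0.67), Cox4i1 (1.25 against -0.15) and Atp5c1 (0.39 against -0.50), so 4 of the 9 genes with several probe sets have no settled direction between marrow and culture. Of the 66 probe sets shown, 11 carry the suffix f, which marks probes shared with similar sequences: Ndufa3, Ndufb2 and Ndufb5 of complex I, Uqcrb and Uqcrc2 of complex III, Cox4i1, Cox6a1, Cox6b2 and Cox6c of complex IV, and Atp5g2 and Atp5md of complex V. A further 2 carry the suffix s (Ndufa5 and Sdhb) and 1 the suffix g (Atp5c1), which can also mark probes shared between transcripts. The remaining suffixes are i (Atp5e) and r (Cox6b1), with 1 probe set each, and 50 probe sets carry no such suffix.

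**Figure D2:**
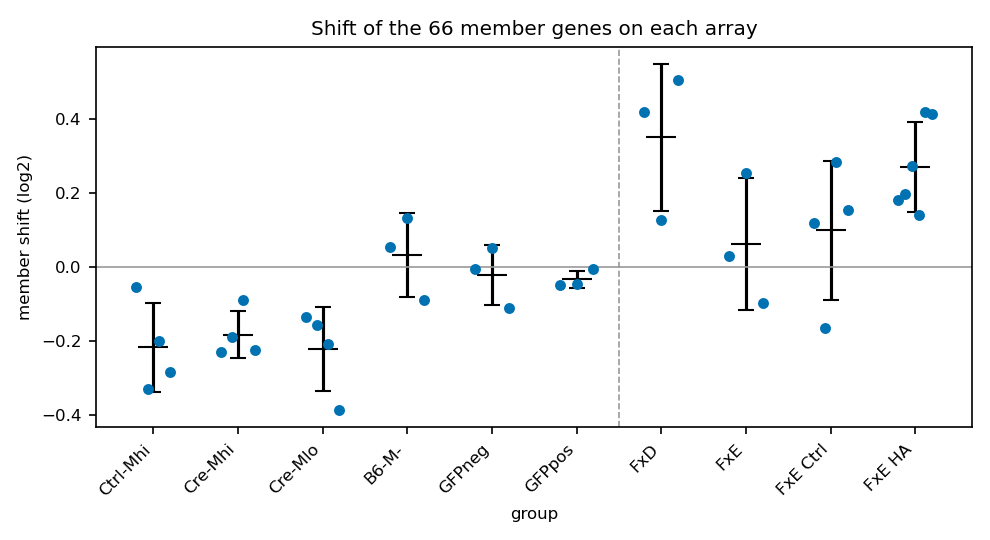
Each point is 1 array, placed at the median over the 66 members of the log2 signal minus the member's mean over the groups, by group. Ctrl-Mhi, Cre-Mhi and Cre-Mlo arrays lie lowest, with group means of -0.22, -0.18 and -0.22, and FxD and FxE HA highest, with 0.35 and 0.27.

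As a whole, the 66 genes shifted by less than 1 between groups. The median shift of the members per array averaged -0.22 ± 0.12 (SD, n = 4) in Ctrl-Mhi, -0.18 ± 0.06 (n = 4) in Cre-Mhi and -0.22 ± 0.11 (n = 4) in Cre-Mlo, in log2. It was 0.03 ± 0.11 (n = 3) in B6-M-, -0.02 ± 0.08 (n = 3) in GFPneg and -0.03 ± 0.02 (n = 3) in GFPpos. Marrow groups reached 0.35 ± 0.20 (n = 3) in FxD, 0.06 ± 0.18 (n = 3) in FxE, 0.10 ± 0.19 (n = 4) in FxE Ctrl and 0.27 ± 0.12 (n = 6) in FxE HA. From the lowest to the highest group this is 0.57, and 0.95 with arrays centred on their median. The 3 interferon-treated groups differed by less than the spread between their arrays.

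Loss of surface IgM left the respiratory chain genes without a called change. In the limma fit, none of 66 members differed between Cre-Mlo and Ctrl-Mhi cells at an adjusted p under 0.05, while 8.33% of all probe sets did, and 5 members had an unadjusted p under 0.05. Members split evenly, 33 higher and 33 lower, with a median difference of 0.00 in log2 against -0.04 for all probe sets. For 56 of 66 members the 95% confidence interval of the difference lay within 1 log2 unit (50.7% of all probe sets), so that for these a 2-fold change in either direction lay outside the interval. The interval typically reached 0.33 to either side of the estimate (median).

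Ndufb8, an accessory subunit of complex I, came closest in that comparison. Its signals were 5802, 5310, 5019 and 5130 in Cre-Mlo and 7115, 6739, 7320 and 6072 in Ctrl-Mhi arrays. The groups did not overlap, and the difference was -0.36 ± 0.10 (SE, log2) with an adjusted p of 0.0635. Ndufs3, a core subunit of complex I, read 6730, 6495, 6430 and 6660 in Cre-Mlo against 5452, 5158, 5350 and 5531 in Ctrl-Mhi arrays, a difference of 0.29 ± 0.11 with an adjusted p of 0.151, again without overlap. With the methods' t-test after Benjamini-Hochberg adjustment Ndufs3 was the member called (adjusted p 0.00872). Between these subunits of 1 complex the signs were opposite. Ndufb8 passed the threshold after quantile normalization or with the filter at a mean of 500, and was then the member called. Without Cre-Mlo replicate 3, Ndufc1, an accessory subunit of complex I, was called instead (0.62, adjusted p 0.0247), a gene for which that array read 1916 and the other Cre-Mlo arrays 3938 to 4190.

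Cells that kept or lost IgM in the same Mx-Cre cultures gave the same picture. Between Cre-Mlo and Cre-Mhi cells limma called none of 66 members (6.08% of all probe sets were called, and 3 members had an unadjusted p under 0.05), with a median of -0.06 and 59 intervals within 1 log2 unit. Ndufs1, the largest subunit of complex I, differed by 0.26 (adjusted p 0.247) and Ndufs3 by 0.25 (adjusted p 0.276). Pairing same-numbered sorts with a replicate block also called 0 members. The study reports that part of the Cre-Mhi population had already deleted the floxed heavy chain allele. Cre-Mlo against Cre-Mhi is thus not a comparison of deleted with wholly undeleted cells. Between Cre-Mhi and Ctrl-Mhi cells, which differ in the Mx-Cre transgene and in this partial deletion, limma again called 0 members, and 0.02% of all probe sets. There the median was 0.04, 2 members had an unadjusted p under 0.05, and Atp5e, the epsilon subunit of ATP synthase, differed by 0.51 (adjusted p 0.648).

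Outside the chain 112 genes were measured, mitochondrial genes together with 12 regulators of mitochondrial biogenesis. Of these, 10 rose and 5 fell from Ctrl-Mhi to Cre-Mlo cells, which differ in the Mx-Cre transgene as well. That is 13.4%, compared with the 8.33% of all probe sets called in that comparison. Between Cre-Mhi and Cre-Mlo cells of the same cultures 4 rose and 3 fell, 6.25% against 6.08% of all probe sets, so that share was near the background. Of 14 genes of the tricarboxylic acid cycle, 3 rose and 2 fell between Ctrl-Mhi and Cre-Mlo cells. Fh1 (fumarate hydratase) fell from 7610 ± 639 to 5133 ± 411 (adjusted p 0.0106), and Pdhb, a subunit of pyruvate dehydrogenase, rose from 5845 ± 514 to 8179 ± 547 (adjusted p 0.0197). Of 12 measured regulators of mitochondrial biogenesis 2 rose. Gabpb1, the beta subunit of the ETS factor GABP, rose from 1575 ± 167 to 3690 ± 416 (n = 4 each), by 1.23 ± 0.12 in log2 with an adjusted p of 1.65e-04. Gabpa, its DNA-binding partner, read 1531 ± 317 against 1253 ± 198 (adjusted p 0.484). Ssbp1, which coats single-stranded mitochondrial DNA, rose from 1320 ± 232 to 2716 ± 476 (adjusted p 0.00451). Of 56 mitochondrial ribosomal genes 4 rose and 2 fell (10.7%), and of 18 genes of import and exchange 1 rose (Timm17a, 0.88) and 1 fell (Slc25a4, an ADP/ATP carrier, by 0.52), 11.1% of that list, so both shares lay near that of all probe sets. Of 8 electron carrier genes and 4 mitochondrial antioxidant genes none was called.

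**Figure D3:**
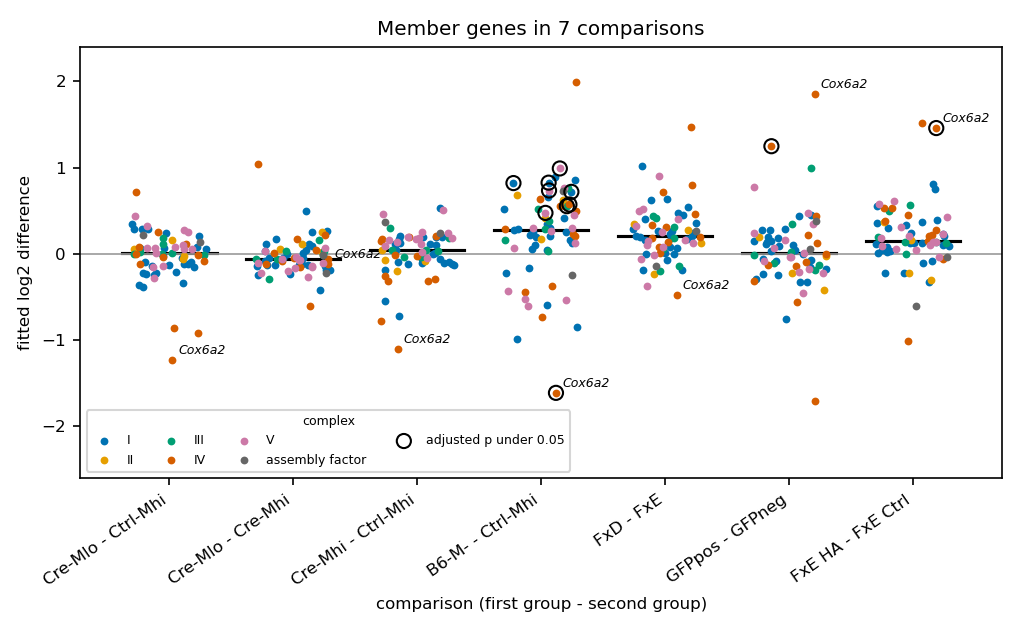
Log2 differences of the 66 members in the 7 comparisons, 1 point per gene, with called members ringed, Cox6a2 labelled and the median as a bar. The median is 0.28 for B6-M- minus Ctrl-Mhi, 0.20 for FxD minus FxE, 0.14 for FxE HA minus FxE Ctrl, and within 0.06 of zero for the other comparisons.

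In IgM-negative B6-M- cells from IL-7 cultures most members had higher signals than in Ctrl-Mhi cells, while few were called. Of 66 members 8 were higher (6.91% of all probe sets) and 1 was lower (7.3% of all probe sets), and the share of members called in either direction, 13.6%, was close to the 14.2% of all probe sets. Signs were one-sided: 52 of 66 members (78.8%) were higher in B6-M- cells, compared with 41.6% of all probe sets, and the median difference was 0.28 against -0.13 in log2. By complex, 22 of 27 genes of complex I, 4 of 4 of complex II, 7 of 7 of complex III, 8 of 12 of complex IV and 10 of 14 of complex V were higher, with medians of 0.25, 0.52, 0.38, 0.26 and 0.28. The groups differ in strain, in the knock-in alleles, in stage, and in IL-7 and interferon at the time of harvest, which cannot be told apart here. In the same comparison 9 of 20 proliferation genes rose and 1 fell, with a median of 1.34. Summed erythroid markers were 7198 to 9819 in B6-M- against 2488 to 3545 in Ctrl-Mhi arrays. In that sum Car2 averaged 6806 and 1297, and it was the 1 marker called of the 8.

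Of complex I, 3 genes were called. Ndufb2, an accessory subunit of the membrane arm, read 10376, 11994 and 11357 in B6-M- and 6947, 5750, 6654 and 6051 in Ctrl-Mhi arrays. That is a difference of 0.83 ± 0.14 in log2 (adjusted p 0.0116), and its second probe set gave 0.80 (adjusted p 0.0231). Ndufb6, of the same arm, read 7932, 8049 and 9858 against 5461, 4537, 5171 and 4325 (0.82 ± 0.16, adjusted p 0.0180). For both genes every B6-M- array lay above every Ctrl-Mhi array. Ndufv2, a core subunit with an iron-sulphur cluster, averaged 7635 ± 1176 against 4610 ± 256 (adjusted p 0.0245).

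Of complex V, Atp5o, the subunit that links the catalytic head to the stalk, read 6892, 7518 and 7519 in B6-M- against 3188, 4387, 4140 and 3155 in Ctrl-Mhi arrays. This was the largest called rise among the members, 0.99 ± 0.17 in log2 (adjusted p 0.0132). Atp5mpl, a small membrane subunit, averaged 14006 ± 1201 against 8407 ± 468 (0.73 ± 0.13, adjusted p 0.0146), and Atp5a1 20163 ± 1091 against 14500 ± 381 (0.47 ± 0.12, adjusted p 0.0478). In complex III, Uqcrq averaged 15139 ± 389 against 10353 ± 957 (adjusted p 0.0408). In complex IV, Cox7a2 averaged 14920 ± 1615 against 10018 ± 746 (adjusted p 0.0437), whereas Cox6a2 was lower, at 640 ± 169 against 2056 ± 810 (-1.61 ± 0.40, adjusted p 0.0424). The number of calls moved with single arrays: 0 members were called without B6-M- replicate 2, 3 without B6-M- replicate 3, 4 without Ctrl-Mhi replicate 3 or 4, and 5 without B6-M- replicate 1 or Ctrl-Mhi replicate 2. When the test was limited to signals averaging 500 or more, 21 of 57 members passed. The share of all probe sets passing under that limit is not given here, so this count describes the members alone.

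**Figure D4:**
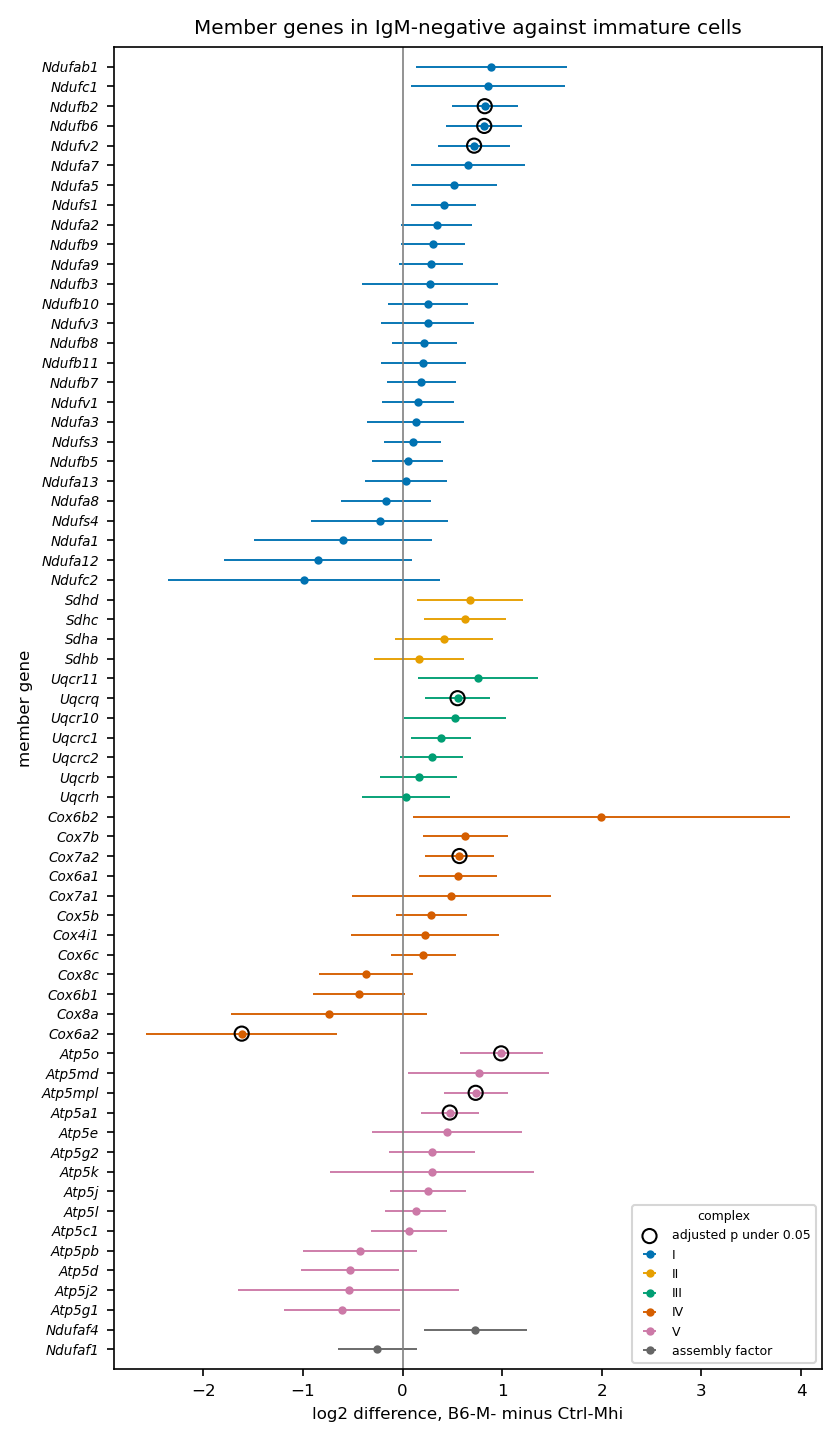
Log2 differences of the members between B6-M- and Ctrl-Mhi cells, with 95% confidence intervals from limma as bars, ordered by size. The 8 called rises run from 0.47 (Atp5a1) to 0.99 (Atp5o), and Cox6a2, at -1.61, is the 1 called fall.

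Of the 112 mitochondrial and regulator genes outside the chain 19 rose in B6-M- cells and none fell, 17.0% against 6.91% of all probe sets called higher. Of 56 mitochondrial ribosomal genes 11 rose and none fell, with a median of 0.25. Mrpl13 rose by 1.01 and Mrps28 by 1.25 in log2 (adjusted p 0.00665 and 0.00716). Of 18 import and exchange genes 3 rose, the mitochondrial chaperones Hspa9 by 1.42 and Hspd1 by 1.65, and Timm23, a channel subunit of the inner membrane translocase, by 0.79. Etfa and Etfb, which carry electrons from fatty acid oxidation to the chain, rose by 0.66 and 0.78, and Mdh2, the malate dehydrogenase of the cycle, by 0.81. Among regulators Gabpb1 rose by 1.26 (adjusted p 0.00422) and Myc by 2.13 (adjusted p 0.00574), the other 10 not being called. Ctrl-Mhi arrays serve in this comparison and in that with Cre-Mlo cells, so the Gabpb1 values of the 2 comparisons share their controls.

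Pre-B and immature B cells taken straight from marrow did not differ in any member by the test. Between FxD and FxE limma called 0 of 66 members (3.0% of all probe sets), with 4 at an unadjusted p under 0.05. Even so, 53 of 66 members (80.3%) were higher in FxD, compared with 53.7% of all probe sets, with a median of 0.20 against 0.04. That median was 0.08 without FxD replicate 3 and 0.35 without FxD replicate 2. Ndufab1, the mitochondrial acyl carrier protein, which is also a subunit of complex I, read 4733, 3135 and 5087 in FxD against 2062, 1938 and 2277 in FxE arrays (1.02 ± 0.28 in log2, adjusted p 0.154), without overlap. Cox5b, of complex IV, differed by 0.80 (adjusted p 0.296). Only 29 of 66 intervals lay within 1 log2 unit here, reaching 0.76 to either side of the estimate (median), so 2-fold differences could not be bounded for most members. Of 20 proliferation genes 17 rose in FxD, with a median of 2.38. Summed erythroid markers were 74572 to 144412 in FxD and 153868 to 211655 in FxE, and summed myeloid markers 36910 to 78082 and 67475 to 278162, and their part in these differences was not tested.

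Herbimycin A left most members without a called change in either cell system. Between GFPpos and GFPneg cells limma called 1 of 66 members (2.59% of all probe sets), with 8 at an unadjusted p under 0.05, a median of 0.01 and 50 intervals within 1 log2 unit. Between FxE HA and FxE Ctrl cells it called 1 of 66 (3.37% of all probe sets), with 10 at an unadjusted p under 0.05 and 50 intervals within 1 log2 unit. In the marrow cells 54 of 66 members (81.8%, against 56.1% of all probe sets) were higher with the drug, including 13 of 14 of complex V and 7 of 7 of complex III, with a median of 0.14 against 0.07. Without FxE Ctrl replicate 1 that median was 0.31.

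Cox6a2, the muscle form of subunit VIa of complex IV, was the member that varied most across the study, with group means spanning 4.69 in log2 (4.71 after quantile normalization and 4.94 with arrays centred). The B6-M- group had the lowest mean, with arrays at 726, 749 and 446, although single arrays of other culture groups were lower, down to 304 in Cre-Mhi. FxE HA arrays were highest, at 18522, 18741, 17391 and 19475 after 24 h and 10601 and 13741 after 48 h. FxE Ctrl arrays, cultured in medium, gave 5800, 5721, 5283 and 5533, and fresh FxE arrays 2161, 3310 and 2791. Every FxE HA array thus lay above every array of any other group. The drug difference was 1.46 ± 0.17 in log2, or 2.75-fold, with an adjusted p of 0.00216 in the fit that allows for hours. It was 1.68 (adjusted p 0.0291) in the 24 h arrays alone and 1.16 (adjusted p 0.521) in the 48 h arrays alone, where 2 arrays stand against 2. With a replicate block it was 1.69 (adjusted p 0.328). By the study's count of sorts some FxE HA arrays share a sort, so these p-values measure partly technical spread.

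In the HEL-Ig cells Cox6a2 read 4563, 3863 and 2412 in GFPpos and 1117, 1365 and 595 in GFPneg arrays. These groups did not overlap either, and the difference was 1.85 ± 0.40 (SE, log2), with an adjusted p of 0.0793 that missed the threshold (0.0174 when the test was limited to signals averaging 500 or more). Receptor deletion gave the opposite sign: 925, 608, 704 and 1106 in Cre-Mlo against 1898, 984, 2811 and 2531 in Ctrl-Mhi arrays, with overlap, a difference of -1.23 ± 0.54 and an adjusted p of 0.225. Cre-Mhi arrays, at 798, 304, 1109 and 2283, spanned both. Tested as a difference of differences, deletion minus herbimycin A in HEL-Ig cells, Cox6a2 gave -3.08 (95% interval -4.32 to -1.85, adjusted p 0.0424), the 1 member called there (0.381% of all probe sets were called). That call was lost, at adjusted p values up to 0.0914, in 12 of 14 fits that left out 1 array, and held without Ctrl-Mhi replicate 2 or GFPpos replicate 3. In FxD cells Cox6a2 averaged 1954 and in FxE cells 2754 (difference -0.48, adjusted p 0.516).

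Cox6a1, the ubiquitous form, read from a probe set that similar sequences may share, passed no test in these comparisons. Its FxE HA arrays read 54257 to 73950 with a median of 62707, and FxE Ctrl arrays 50150, 52310, 44816 and 46032, a difference of 0.38 with an adjusted p of 0.282. In HEL-Ig cells it read 19171, 18742 and 21329 with the drug and 23383, 20889 and 21207 without (-0.14, 95% interval -0.48 to 0.19). In Cre-Mlo and Ctrl-Mhi cells it averaged 16442 and 16509. The difference between both forms in their response was not tested.

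**Figure D5:**
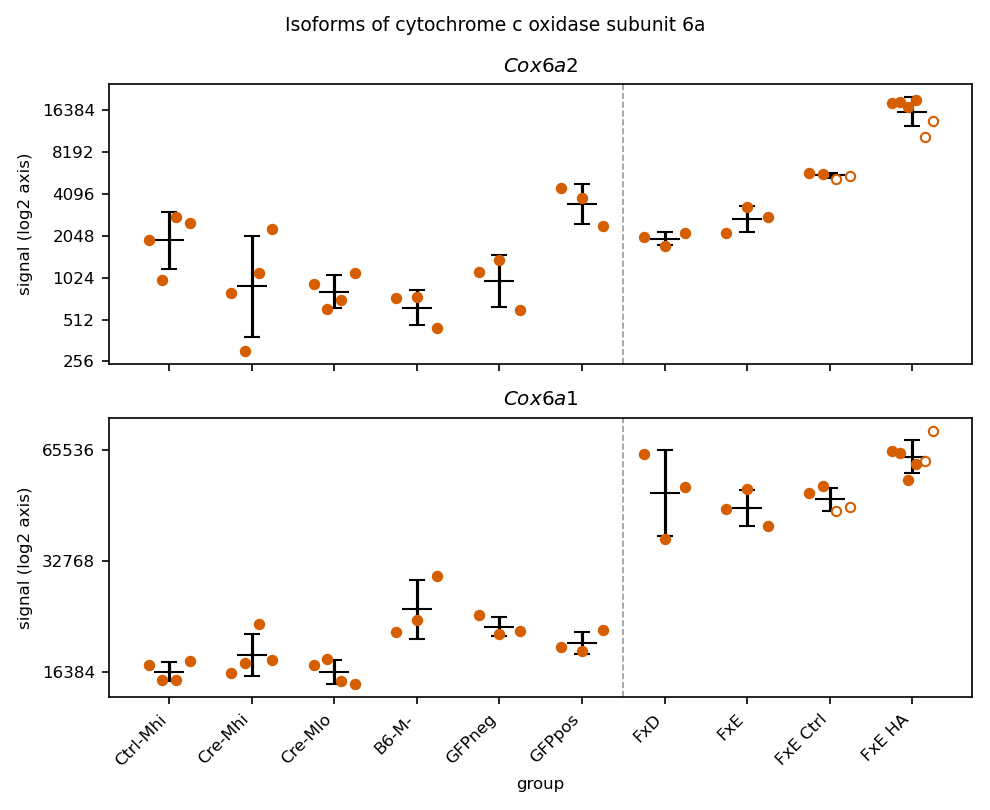
Signals of Cox6a2 and Cox6a1 on each array by group, on a log2 axis, with bars for the mean ± SD of the log2 values and open points for 48 h arrays of FxE Ctrl and FxE HA. Cox6a2 ranges from 304 in a Cre-Mhi array to 19475 in an FxE HA array, and Cox6a1 separates marrow from culture groups.

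Cox6b2, the testis form of a complex IV subunit, was the member called with herbimycin A in HEL-Ig cells. It read 464, 562 and 636 in GFPpos and 240, 197 and 261 in GFPneg arrays, a difference of 1.25 ± 0.19 in log2 (adjusted p 0.0429). These are dim signals from a probe set that similar sequences may share, and a second, dimmer probe set gave 0.32 (adjusted p 0.748). The call was lost in all 6 fits that left out 1 array, with adjusted p values of 0.0654 to 0.138. In FxE HA against FxE Ctrl cells Cox6b2 differed by 1.51 (adjusted p 0.0880) and its second probe set by -0.49. Cox6b1, the ubiquitous form, differed by -0.13 and -0.06 in the 2 systems. Of the remaining tissue-restricted forms, Cox7a1 (muscle) averaged 84.7 ± 48.6 in GFPpos and 263 ± 95.4 in GFPneg cells (adjusted p 0.132), and Cox8c stayed between group means of 1896 and 2797.

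Uqcrh, the hinge protein of complex III, read 30962, 20065 and 23249 in GFPpos against 11231, 12956 and 12621 in GFPneg arrays, without overlap (0.99 in log2, adjusted p 0.0708, or 0.0148 among signals averaging 500 or more). In marrow cells its means were 6556 with and 6681 without the drug. The difference between the 2 herbimycin A comparisons was 0.99 ± 0.28 with an adjusted p of 0.139. No member was called for that difference (0.692% of all probe sets were, and 8 members had an unadjusted p under 0.05), and with the filter at a mean of 500 Uqcrh was, at an adjusted p of 0.0446. Next in FxE HA cells came Ndufab1 (0.76, adjusted p 0.119), Cox4i1 (0.53, adjusted p 0.141, with -0.27 for its second probe set) and Atp5o (0.61, adjusted p 0.185).

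Of the 112 mitochondrial and regulator genes outside the chain 3 rose with herbimycin A in each system and none fell. This share of 2.68% lay near the 2.59% (HEL-Ig cells) and 3.37% (marrow cells) of all probe sets called. Hspe1, the mitochondrial co-chaperonin, rose from 3335 ± 289 to 12670 ± 4865 in HEL-Ig cells (adjusted p 0.0482) and from 9072 ± 1102 to 28402 ± 3051 in marrow cells (adjusted p 6.67e-04). Coq7, an enzyme of ubiquinone synthesis, rose by 0.82 (adjusted p 0.0481) and by 1.42 (adjusted p 0.0115) in log2. Pdha1, a subunit of pyruvate dehydrogenase, rose by 1.43 in HEL-Ig cells (adjusted p 0.0475), and Hspd1, the chaperonin partner of Hspe1, by 1.29 in marrow cells (adjusted p 0.0305). No gene of the 56 of the mitochondrial ribosome was called in either system. Sums over marker lists also differed between these groups, each largely through 1 gene. Summed T cell markers (8 genes) were 36668 to 56626 in FxE HA and 21762 to 33029 in FxE Ctrl arrays. In that sum Cd2 averaged 47837 and 24721, and Cd2 averaged at least 3178 in every group of the study. Summed erythroid markers were 14693 to 45665 and 7434 to 18141, with Car2 at 15330 and 3594. Of the other T cell markers, group means reached at most 78.6 for Cd3g, 72.4 for Cd8a, 115 for Cd3e, 128 for Cd3d (in FxE HA) and 247 for Cd247 (in FxE Ctrl), while Cd4 averaged 342 to 839 and Thy1 75.6 to 1661 over the groups. The part of other cells in the FxE HA values was not tested.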

How the data were processed

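RNA of sorted mouse B lineage cells was hybridized to Affymetrix U74Av2 arrays (37 arrays, 10 groups, taken from the labels). The deposited values are hybridization intensities per probe set, which the authors computed with Microarray Suite 5.0 and scaled to 1500 units per array after applying a mask file. Detection p-values were not used here, and neither were arrays of the other chip version. Signals under 20 were raised to 20 and limma 3.58.1 (R 4.3.3; lmFit, eBayes) was run on log2 values, with two-sided tests and Benjamini-Hochberg adjustment over all 9977 probe sets. A member was called when the adjusted p was below 0.05. The Ctrl-Mhi, Cre-Mhi and Cre-Mlo arrays shared a fit, FxE HA and FxE Ctrl had hours (24 or 48, from a legend of the study) as a factor, and other pairs had a fit each. The number of arrays limits the precision. The procedure was tested on simulated arrays with changes planted in randomly chosen probe sets. A change of 1 in log2 was recovered for 44% of these between Cre-Mlo and Ctrl-Mhi and for 28% between B6-M- and Ctrl-Mhi cells. The share was 24% between GFPpos and GFPneg, 18% between FxE HA and FxE Ctrl and 0% between FxD and FxE cells. Changes of 0.5 were recovered for 0 to 14%, so a member that was not called may still differ. The methods' t-test was an alternative.

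Members and gene lists were chosen with earlier results of these data known. The text names called members, the 2 members with the smallest p where none was called, the brightest and dimmest probe set per complex, the 5 members of widest and of narrowest range among those averaging 500 or more, muscle or testis isoforms and up to 3 called genes of each other list. Other genes were added after their values were seen. The supplied annotation gave 8724 probe sets 1 gene name, and 8 that match several respiratory chain names were left out. Same-numbered Cre-Mlo and Cre-Mhi arrays deviate together (correlations 0.194, 0.170, 0.267 and 0.437 over signals averaging 500 or more), so these sorts count as paired. The values given come from the fit without pairing, and a replicate block was an alternative.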

Additional observations from a re-analysis of the deposited data

Results flagged for a closer look

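In groups of 4 to 10 arrays, 195 sets of values were checked for 1 array apart from its group by Dixon's ratio, of which chance flags about 1 in 20, and 14 stood apart. In Ctrl-Mhi, Atp5a1 read 13932 in replicate 2 (others 14658 to 14745) and Ndufaf4 166.6 in replicate 1 (others 252.6 to 268.8). In Cre-Mhi, replicate 3 was high for Ndufb6 (5305.5, others 4652 to 4752), Ndufv2 (5568.6, others 5165 to 5198), Sdha (918.6, others 741.7 to 761.8) and Uqcrh (17728.6, others 13253 to 13928), and replicate 1 was low for Atp5o (3877, others 4451 to 4555). Cre-Mlo replicate 3 was low for Ndufc1 (1915.9, others 3938 to 4190), and Cre-Mlo replicate 2 high for Ndufa13 (2546.1, others 2367 to 2388).

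In FxE Ctrl, replicate 1 was high for Atp5l (5431.9, others 3182 to 3471) and Uqcrq (27097.6, others 20489 to 21254), and replicate 4 for Ndufb8 (7908.7, others 6068 to 6328). In FxE HA, Cox8c read 3638.8 in replicate 5 (others 1869 to 2376) and Ndufs1 4317.3 in replicate 6 (others 2710 to 2997), both 48 h arrays.

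For Cox6a2 the difference with receptor deletion departed from that between GFPpos and GFPneg cells by -3.08 in log2 (limma, adjusted p 0.0424). This call was lost in 12 of 14 fits that left out 1 array (adjusted p up to 0.0914). Neither difference passed on its own (adjusted p 0.225 and 0.0793).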

How the results depend on the processing

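No value changed sign among the members named from a test. For single genes, 93 of the alternative values lost the call, 7 gained it and the rest stayed on their side of the threshold. Members called between Cre-Mlo and Ctrl-Mhi cells (0) became 1 after quantile normalization, with a mean signal of at least 500, or with the methods' t-test after Benjamini-Hochberg, and 0 to 1 with 1 array left out. Between FxD and FxE (0) they became 1 with a mean of at least 500 and 6 in one fit of all 37 arrays. For B6-M- cells (9) they became 21 with a mean of at least 500, 5 with the methods' t-test after Benjamini-Hochberg and 0 with that test's own criteria, and 0 to 7 with 1 array left out. For GFPpos cells (1) they became 0 after quantile normalization or with the t-test in either form, 3 with log2(signal + 50) or a mean of at least 500, 2 in one fit of all arrays, and 0 with any array left out, and the median difference of 0.01 became 0.11 with arrays centred. For FxE HA cells (1) they became 2 after quantile normalization, with log2(signal + 50) or in 24 h arrays, 3 with a mean of at least 500, 7 in one fit of all arrays and 0 in 48 h arrays, and the median ran from 0.10 to 0.31 with 1 array left out. For the difference between both herbimycin A comparisons (0) they became 1 with a mean of at least 500, and for deletion minus kinase block (1) 0 to 1 with 1 array left out. The shares of all probe sets called under these alternatives are not given here, so the counts describe the members alone. The spread of the members' shift over groups, 0.57, became 0.95 with arrays centred.

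Replicate numbers outside the Cre-Mlo and Cre-Mhi pair mark no known shared sort. With a replicate block 0 members were called in each comparison, which lowers the counts of 9 (B6-M-), 1 (GFPpos) and 1 (FxE HA). The cause of these changes was not tested.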
